A study of Homo sapiens with 2 samples.

Results

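The cytosolic HSP70 and HSP90 chaperone machinery was examined as 10 genes of 57820 in a ribosome profiling table of HEK293 cells, an immortalised line derived from human embryonic kidney. The genes were HSPA8, HSPA1A, HSPA1B, HSPA4, HSPH1, DNAJA1, DNAJB1, HSP90AB1, HSP90AA1 and STIP1, taken by their Ensembl IDs without the version number. The rule names them by function and uses no measured value, but it was written with earlier results of these data known. Both libraries were vehicle controls: HEK293 cells kept in DMSO for 12 h with no heat shock, replicate 1 from batch 1 and replicate 2 from batch 2. In ribosome profiling, RNase I removes mRNA that no ribosome covers, and the protected fragments (footprints) are counted, here those of 27 to 29 nt. The 2 libraries form 1 group, so there was no contrast between conditions to test.

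HSP70 proteins bind and release short hydrophobic stretches of unfolded proteins in a cycle driven by ATP. J-domain proteins (HSP40) bring clients and start ATP hydrolysis, nucleotide exchange factors of the HSP110 class reset the cycle, and the adaptor STIP1 (HOP) hands clients from HSP70 to HSP90, which completes the folding of kinases, steroid receptors and other signalling proteins. HSPA8 and HSP90AB1 are made constitutively, whereas HSPA1A, HSPA1B, DNAJB1, HSPH1 and HSP90AA1 are strongly induced when the transcription factor HSF1 is released by protein misfolding.

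Replicate 1 held 865838 counts and replicate 2 held 611266, a ratio of 1.42. The 2 highest IDs of the table, which are not among the 10 genes, took 17.6% of the counts of replicate 1 and 23.2% of replicate 2, so values below are CPM (counts per 1000000) scaled by the trimmed mean of M-values (TMM). After TMM scaling the median log2 ratio of replicate 2 over replicate 1 was -0.005 over the 6965 IDs that reached 20 counts in the libraries together, and -0.11 when scaled by library size. Defining markers of HEK293 and of other cell types were not checked, since the table's IDs could not be paired with names beyond the 10 genes. The labels do not say whether separate cultures were used, so the spread between the libraries may be partly technical, and as each batch holds 1 library, batch and library cannot be told apart. Intervals are 95% and cover counting error only. They treat each fragment as its own molecule, and copies made by PCR carry no molecular identifiers here, so they may be too narrow.

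Of the 10 genes, 8 had footprints in both libraries and 2, HSPA1A and HSPA1B, were listed at 0 in both. The 8 genes together held 4551.5 counts in replicate 1 and 2290.33 in replicate 2, or 0.526% (exact Clopper-Pearson interval 0.511 to 0.541) and 0.375% (0.359 to 0.390) of all counts. Their share was 0.450% ± 0.107 (SD, n = 2), and 0.563% ± 0.106 (SD, n = 2) when the total excluded the 2 highest IDs. HSPA8, HSP90AB1 and HSP90AA1 carried 82.3% of the counts of the 8 genes over both libraries. A gene's footprint total grows with the length of its coding sequence as well as with its translation. Coding lengths are not in the tables used here, so the totals of different genes are set side by side as shares of footprints and are not ordered by synthesis rate.

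**Figure D1:**
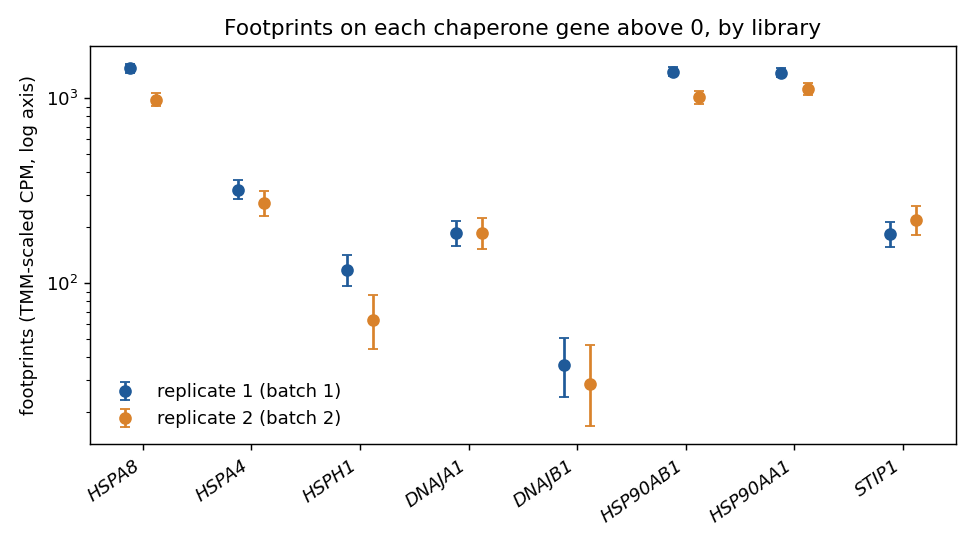
Footprints of the 8 genes above 0 in TMM-scaled CPM (log axis), with 1 point per library and bars for the exact Poisson 95% interval of the count. HSPA8, HSP90AB1 and HSP90AA1 lie between 983 and 1451 CPM, and DNAJB1 is the lowest at 36.1 and 28.6 CPM. Levels are not divided by coding length.

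The HSP70 proteins come first. HSPA8 (ENSG00000109971.9), the constitutive HSC70 that also folds nascent chains on ribosomes and uncoats clathrin vesicles, had 1305 counts in replicate 1 and 578.5 in replicate 2. In TMM-scaled CPM these were 1451 (1374 to 1532) and 983 (904 to 1066), a mean of 1217 ± 331 (SD, n = 2). Replicate 1 was higher by 1.48-fold (1.34 to 1.63), and the intervals of the libraries did not overlap. By footprint total HSPA8 ranked 76 of the 16465 IDs above 0. RefSeq lists 20 pseudogenes named for HSPA8, and the count of replicate 2 is not whole. Some fragments may be divided with such copies, which was not tested. Of the IDs with at least 100 summed counts, 21.6% had a value that is not whole in 1 or both libraries.

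HSPA1A (ENSG00000204389.8) and HSPA1B (ENSG00000204388.5), neighbouring copies that encode the main heat-inducible HSP70, had 0 counts in replicate 1 and 0 in replicate 2. A count of 0 allows up to 3 counts as a one-sided limit, which is 3.34 CPM in replicate 1 and 5.10 CPM in replicate 2; the two-sided exact Poisson interval used for the other genes reaches 4.10 and 6.27 CPM. Their surroundings in the table were also nearly empty. Of the 200 other IDs within 100 places of the pair, 11 were above 0, or 5.5%, and 5 reached a summed count of 20. For each of the 8 genes with footprints, 18.5% to 49.0% of the 200 nearest IDs were above 0, and 28.5% of all IDs were. The 55 IDs just before the pair were all at 0, while the 2 IDs just after it each had a summed count of 39. In RefSeq's annotation of GRCh38.p14 the protein-coding genes next to HSPA1A on chromosome 6 are VARS1, LSM2 and HSPA1L on one side and HSPA1B, NEU1, SLC44A4 and EHMT2 on the other. Apart from HSPA1B, the IDs of these neighbouring genes were not paired with rows here. The order of the count table was not checked against positions on the chromosome. Whether fragments from this stretch, or fragments that match both copies, were left out of the deposited counts was not tested. If they were, neither the 0 nor its limit in CPM measures the translation of these 2 genes. They are therefore described as listed at 0, and no ratio to HSPA8 is given.

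**Figure D2:**
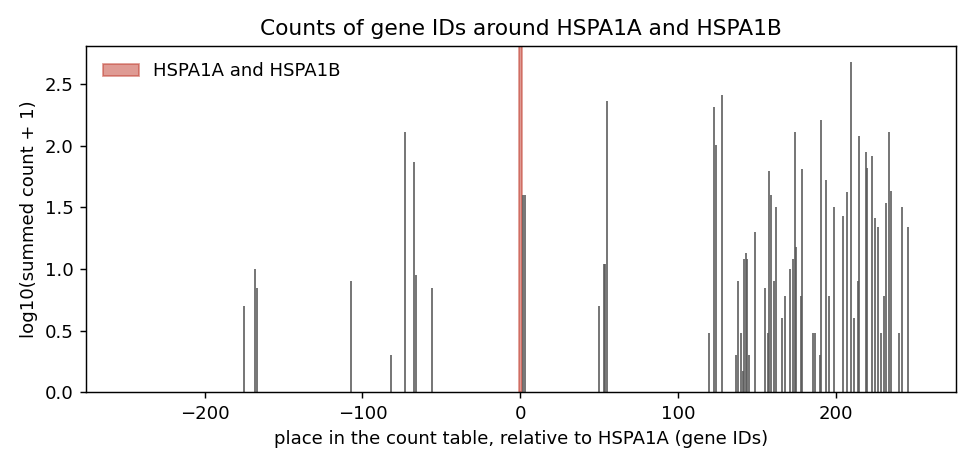
Summed counts of both libraries, as log10(count + 1), for IDs up to 250 places before and after HSPA1A and HSPA1B in the order of the count table; the shaded band marks the pair. The pair lies inside a long stretch where nearly all IDs are at 0, with 11 of 200 IDs above 0 within 100 places.

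HSF1 binds runs in which the unit GAA alternates with its reverse complement TTC at a constant spacing. The 250 bases before the transcription starts that RefSeq gives for GRCh38.p14 were therefore searched for GAANNTTC and TTCNNGAA, each of which reads the same on both strands and which overlap in runs of 3 units. All 10 genes matched by symbol, with 16 start sites in all. At least 1 of the pairs occurred in 7 of their 16 windows (43.8%), against 11.6% of 35116 windows over all genes. By gene this was 7 of 10, for which the share over all genes was not computed. Genes with more starts have more windows that can match. Runs of 3 units, in which a GAANNTTC and a TTCNNGAA share 1 GAA or TTC, were found in 3 of 16 windows. Over all windows the share was 0.441%. The 3 windows belong to HSPA8, HSP90AA1 and HSP90AB1. In HSP90AB1 the runs lay at chr6:44247693-44247942, and the windows of its other listed starts held neither pair. HSPA1A and HSPA1B are copies of each other, so their windows are not separate observations. These matches describe the letters and say nothing of binding in these cells.

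The windows of 5 genes are shown: HSPA8, with 2 runs of 3 units; HSPA1A and HSPA1B, to show how alike the 2 copies listed at 0 are outside their coding sequence; HSP90AA1, the stress-inducible HSP90, at the listed start whose window holds the motifs; and HSPH1, whose ratio between the libraries was the furthest from equality and whose window held neither pair. Each is written 5′ to 3′ on the gene's strand and ends at the base before the start. Capitals mark GAANNTTC, TTCNNGAA and, in HSPA1A and HSPA1B, the TATA box TATAAA.
HSPA8 (chr11:123062137-123062386, minus strand): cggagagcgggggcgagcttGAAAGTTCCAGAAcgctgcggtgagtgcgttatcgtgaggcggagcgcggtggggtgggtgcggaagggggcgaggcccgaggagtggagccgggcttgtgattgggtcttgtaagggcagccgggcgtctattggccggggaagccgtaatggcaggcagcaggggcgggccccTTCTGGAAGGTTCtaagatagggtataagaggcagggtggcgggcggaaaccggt
HSPA1A (chr6:31815293-31815542, plus strand): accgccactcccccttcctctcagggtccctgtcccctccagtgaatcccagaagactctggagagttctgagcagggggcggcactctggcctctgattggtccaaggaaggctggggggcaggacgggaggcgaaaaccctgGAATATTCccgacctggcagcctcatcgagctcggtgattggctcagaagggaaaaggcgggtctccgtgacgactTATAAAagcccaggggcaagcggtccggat
HSPA1B (chr6:31827488-31827737, plus strand): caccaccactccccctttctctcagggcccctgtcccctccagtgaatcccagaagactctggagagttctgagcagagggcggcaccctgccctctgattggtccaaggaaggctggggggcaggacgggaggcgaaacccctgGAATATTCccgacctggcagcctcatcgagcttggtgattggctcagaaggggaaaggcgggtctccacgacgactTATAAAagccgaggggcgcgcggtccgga
HSP90AA1 (chr14:102087045-102087294, minus strand): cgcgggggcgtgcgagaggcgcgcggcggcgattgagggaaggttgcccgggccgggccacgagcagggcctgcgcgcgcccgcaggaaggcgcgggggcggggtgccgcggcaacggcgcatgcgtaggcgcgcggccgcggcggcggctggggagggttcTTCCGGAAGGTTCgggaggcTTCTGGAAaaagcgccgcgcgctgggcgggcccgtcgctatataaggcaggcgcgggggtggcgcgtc
HSPH1 (chr13:31162389-31162638, minus strand): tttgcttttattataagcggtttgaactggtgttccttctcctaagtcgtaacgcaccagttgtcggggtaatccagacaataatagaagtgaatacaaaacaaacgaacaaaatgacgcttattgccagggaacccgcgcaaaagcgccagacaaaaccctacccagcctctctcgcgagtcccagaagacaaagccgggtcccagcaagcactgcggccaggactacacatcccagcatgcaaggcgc
HSPA1A and HSPA1B were identical at 235 of 249 aligned bases (94.4%). These bases lie before the transcription start, so their identity does not bear on whether footprints match both copies. The coding sequences were not compared. Both held 1 GAANNTTC, starting 106 and 105 bases before the start, and 1 TATAAA, at 30 and 29 bases. In HSPA8 the motifs started between 230 and 50 bases before the start, and in HSP90AA1 between 88 and 68.

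The nucleotide exchange factors of the HSP110 class were HSPA4 and HSPH1. The interval of the ratio between libraries excluded equality for HSPH1 and included it for HSPA4, but the intervals of the 2 genes overlapped. HSPA4 (ENSG00000170606.9), also called APG-2, had 288 counts in replicate 1 and 159 in replicate 2, which are 320 (284 to 360) and 270 (230 to 316) TMM-scaled CPM. Replicate 1 was 1.19-fold higher, with an interval of 0.973 to 1.45 that includes equality. HSPH1 (ENSG00000120694.15), the heat-inducible HSP105, had 106 counts in replicate 1 and 37 in replicate 2. These are 118 (96.5 to 143) and 62.9 (44.3 to 86.7) CPM, a mean of 90.4 ± 38.9 (SD, n = 2), and the intervals did not overlap. Replicate 1 was 1.88-fold higher (1.28 to 2.81), the furthest from equality among the 8 genes. Of the 2241 IDs that reached 100 summed counts, 3.97% lay further towards replicate 1. The log2 ratio of replicate 2 over replicate 1 was -0.91 with TMM scaling and -1.02 by library size.

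The J-domain proteins were represented by DNAJA1 and DNAJB1. DNAJA1 (ENSG00000086061.11), a farnesylated J-domain partner of HSPA8, had 167 counts in replicate 1 and 110 in replicate 2, or 186 (159 to 216) and 187 (154 to 225) CPM in replicates 1 and 2. The 2 libraries were nearly equal, with a log2 ratio of replicate 2 over replicate 1 of 0.009 (-0.35 to 0.36), which became -0.10 by library size. DNAJB1 (ENSG00000132002.3), the heat-inducible partner of HSP70 in loosening aggregates, had 32.5 counts in replicate 1 and 16.83 in replicate 2. These are 36.1 (24.3 to 50.2) and 28.6 (16.8 to 46.3) CPM, and the log2 ratio of -0.30 had an interval from -1.24 to 0.59, so a difference was not detectable at this depth. Both values of DNAJB1 were not whole, while those of DNAJA1 were whole. RefSeq lists 2 pseudogenes named for DNAJB1 and 6 for DNAJA1. Of the 16465 IDs above 0, 20.0% had a value that is not whole in 1 or both libraries.

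The HSP90 isoforms had similar footprint totals. HSP90AB1 (ENSG00000096384.15), the constitutive isoform, had 1250 counts in replicate 1 and 597 in replicate 2, which are 1390 (1314 to 1470) and 1014 (935 to 1099) CPM. Replicate 1 was 1.37-fold higher (1.24 to 1.51). HSP90AA1 (ENSG00000080824.14), the inducible isoform, had 1238 and 663 counts, which are 1377 (1301 to 1456) and 1127 (1043 to 1216) CPM. Replicate 1 was 1.22-fold higher (1.11 to 1.35). By footprint total HSP90AA1 ranked 72 and HSP90AB1 78 of 16465 IDs above 0, and the ranges of the 2 genes over the libraries overlapped. RefSeq lists 6 pseudogenes of the HSP90AB series and 5 of the HSP90AA series, while all 4 values were whole.

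STIP1 (ENSG00000168439.12), the adaptor that bridges HSP70 and HSP90, had 165 counts in replicate 1 and 129 in replicate 2. In TMM-scaled CPM these are 184 (157 to 214) and 219 (183 to 260), a mean of 201 ± 25.2 (SD, n = 2). Both counts were whole, and RefSeq lists 3 pseudogenes named for STIP1. Its log2 ratio of replicate 2 over replicate 1 was 0.26, the highest of the 8 genes and above 0 by library size too (0.15), with an interval of -0.09 to 0.60 that includes equality.

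The libraries were then compared over the 8 genes. The log2 ratio of replicate 2 over replicate 1 was below 0 for 6 of the 8, with a median of -0.30 and a range from -0.91 to 0.26. Of the 6965 IDs that reached 20 summed counts, 50.4% were below 0. By library size these were 7 of the 8 genes and 57.3% of the IDs, with DNAJA1 changing side. Of the 7 genes that reached 100 summed counts, 5 were below 0, against 56.8% of 2241 IDs. The interval lay wholly on the side of replicate 1 for 4 of these 7 (HSPA8, HSPH1, HSP90AB1 and HSP90AA1), against 22.3% of the 2241 IDs, and wholly on the side of replicate 2 for 0 of 7, against 15.6%. With at least 500 summed counts, where intervals are narrower, HSPA8, HSP90AB1 and HSP90AA1 were 3 of 3 on the side of replicate 1, against 33.9% of 384 IDs. Those 3 genes had 1847 to 1901 summed counts, well above this minimum, so their intervals are narrower than those of many of the 384 IDs. The share among IDs of like count was not computed. None of the 7 genes (0) had an interval wholly beyond 2-fold towards replicate 1, against 0.312% of IDs, or towards replicate 2, against 0.491%. At 1.5-fold the count was also 0, against 2.05% and 2.19%. Because the whole interval must pass the limit, a true difference of just that size would mostly go uncalled, so these counts of 0 do not show that the genes were equal in the libraries. No p-value was computed, since each batch holds 1 library.

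**Figure D3:**
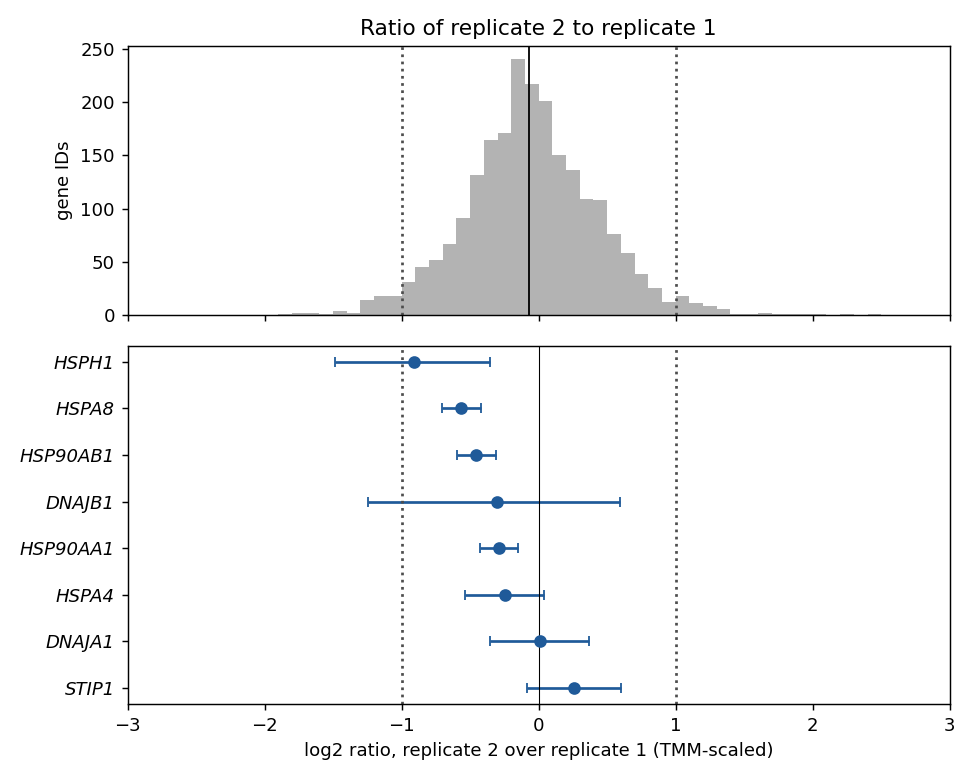
Upper panel, histogram of the log2 ratio of replicate 2 over replicate 1 (TMM-scaled) for the 2241 IDs that reached 100 summed counts, with the median of -0.07 as a solid line. Lower panel, the same ratio for the 8 chaperone genes with 95% exact binomial intervals; dotted lines mark 2-fold. HSPH1 is furthest to the left at -0.91 and STIP1 furthest to the right at 0.26. Every interval overlaps that of its neighbour in the order, but genes further apart do not all overlap. The interval of STIP1 lies apart from those of HSPH1, HSPA8, HSP90AB1 and HSP90AA1.

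Summed over the 8 genes, the log2 ratio was -0.38 (-0.45 to -0.31), or 1.30-fold higher in replicate 1 (1.24 to 1.37). The median of the single ratios of the 2241 IDs was -0.07. The sum rests on the 3 genes of highest count: the other 5 together had 758.5 counts in replicate 1 and 451.83 in replicate 2, and their log2 ratio was -0.13 (-0.31 to 0.04). The ratios of the 7 genes with at least 100 summed counts lay within the central 95% of the 2241 IDs, from -1.04 to 0.94. HSPA8, HSP90AB1 and HSP90AA1 also lay within the central 95% of the 176 IDs with at least 1000 counts, from -0.87 to 0.68. The coefficient of variation between the libraries, estimated by edgeR, was 0.208 over the 2241 IDs, a spread that the counting intervals leave out. The differences of HSPA8, HSPH1, HSP90AB1 and HSP90AA1 thus exceeded counting error and lay inside the range of other IDs that reached the same count minimum.

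Ratios between chaperone genes within a library do not depend on how the libraries are scaled, and their change between libraries does not depend on coding length. HSP90AA1 had 0.990 counts per count of HSP90AB1 in replicate 1 (0.915 to 1.07) and 1.11 in replicate 2 (0.993 to 1.24). The ratio in replicate 2 was 1.12 times that in replicate 1 (0.977 to 1.29), an interval that includes equality. HSPH1 had 0.368 counts per count of HSPA4 in replicate 1 (0.292 to 0.461) and 0.233 in replicate 2 (0.158 to 0.335). Its change was 0.633-fold (0.403 to 0.979), just past counting error. DNAJB1 had 0.195 (0.127 to 0.281) and 0.153 (0.0869 to 0.259) counts per count of DNAJA1, a change of 0.807-fold (0.400 to 1.58) that includes equality.

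STIP1 had 0.0663 counts per count of the 2 HSP90 isoforms in replicate 1 (0.0563 to 0.0777) and 0.102 in replicate 2 (0.0847 to 0.123). The change was 1.54-fold (1.20 to 1.98), and the intervals of the libraries did not overlap. HSPA8 had 0.525 counts per HSP90 count in replicate 1 (0.490 to 0.561) and 0.459 in replicate 2 (0.415 to 0.507), a change of 0.875-fold (0.775 to 0.987). The genes furthest apart, HSPH1 and STIP1, were chosen after their values were seen: HSPH1 had 0.642 counts per STIP1 count in replicate 1 (0.499 to 0.825) and 0.287 in replicate 2 (0.193 to 0.416). These 6 ratios share genes with each other and were not tested. Their intervals leave out the coefficient of variation of 0.208 found between the libraries over 2241 IDs. How often pairs of other IDs change as much was not computed.

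As shares of the counts of the 8 genes, HSPA8, HSP90AB1 and HSP90AA1 each stayed between 25.3% and 28.9% in both libraries. The share of STIP1 was higher in replicate 2, and that of HSPH1 was lower there with overlapping intervals. HSPA8 took 28.7% (27.4 to 30.0) and 25.3% (23.5 to 27.1), HSP90AB1 took 27.5% and 26.1%, and HSP90AA1 took 27.2% and 28.9% in replicates 1 and 2. STIP1 took 3.63% (3.10 to 4.21) and 5.63% (4.72 to 6.66). The intervals of HSPA8 and STIP1 did not overlap between the libraries, but they cover counting error only. How often this occurs among other IDs was not computed. HSPH1 took 2.33% (1.91 to 2.81) and 1.62% (1.14 to 2.22), and DNAJB1 0.714% and 0.735%.

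**Figure D4:**
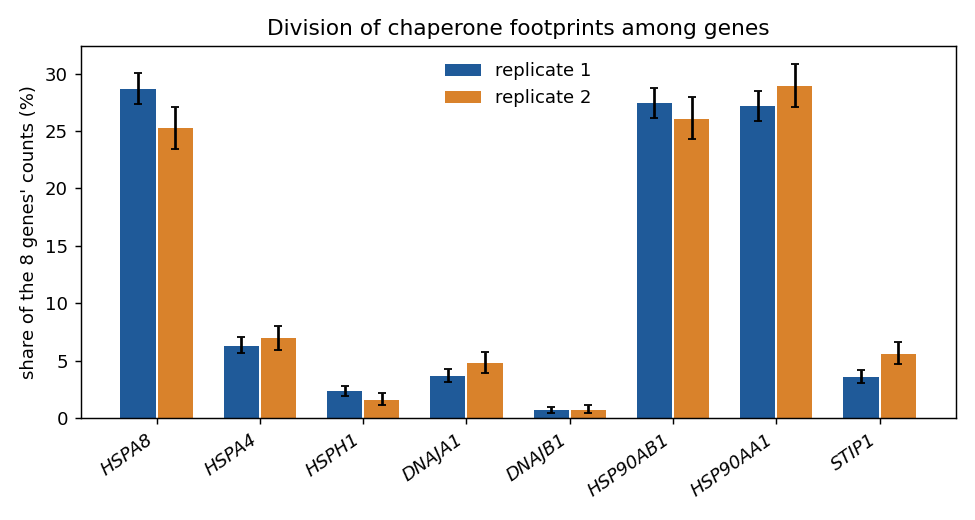
Share of the summed counts of the 8 genes taken by each gene in replicate 1 and replicate 2, in percent, with exact Clopper-Pearson 95% intervals. HSPA8, HSP90AB1 and HSP90AA1 each take between 25.3% and 28.9%, and STIP1 takes 3.63% and 5.63%.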

How the data were processed

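Ribosome-protected fragments were measured in 2 vehicle control libraries of HEK293. Per the labels, RNase I digestion of lysates from 2 plates of 15 cm was followed by size-exclusion isolation of monosomes, and a gel cut took fragments of 20 to 38 nt; ribosomal RNA was not depleted. The authors deposited 1 estimated count of 27 to 29 nt fragments per Ensembl ID and library, not scaled; some values are not whole (by more than 0.001). The submitters' processing notes name hg19 as the build. The aligner, counter, annotation, strand setting and rule for divided fragments were not given in the sources used here, so genes with near-identical copies, and those overlapped by another gene, are uncertain.

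The table of 59792 RefSeq genes lists an Ensembl ID for 0 of them, and 0 IDs of the count table occur in it, so the 10 genes were named from the pairs given with their selection, and matched to RefSeq by symbol. The members, gene lists and tests were chosen with earlier results of these data known. The rule for named genes took all 10 genes, and further genes only where IDs could be named; 5 wider chaperone and heat shock lists, cell type markers and coding lengths could not be applied. Counts were rounded for intervals. TMM factors came from edgeR 4.0.16 (R 4.3.3) over IDs that reached 20 summed counts, and the coefficient of variation from its common dispersion in an intercept-only design. Ratios between libraries have conditional exact binomial intervals, changes of ratios conditional odds ratio intervals, and levels exact Poisson intervals (scipy 1.17.1, pandas 2.3.3, Python 3.11.15). Calling was tested on simulated data. Alternatives were scaling by library size or by DESeq2 1.42.0, other minimums and fold limits, unrounded values, and each replicate left out. The neighbours of HSPA1A in the table, the ratios of HSPA8 to HSP90 and of HSPH1 to STIP1, and leaving out the 3 genes of highest count were added after seeing the data.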

Additional observations from a re-analysis of the deposited data

How the results depend on the processing

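The summed log2 ratio of the 8 genes, -0.38, became -0.49 by library size and -0.13 without the 3 genes of highest count; the first follows from the scaling, which moved all IDs alike. Leaving the 2 highest IDs out of the totals raised the summed level from 4477 to 5629 CPM and the share from 0.450% to 0.563%, by construction. The count of genes beyond 2-fold was 0 under each alternative run (1.5-fold, 2 other scalings, minimums of 20 and 500, ratio without interval). The ratio without interval was run with TMM scaling only. By library size the log2 ratio of HSPH1 was -1.02, which is past 2-fold, although its interval was not wholly past it. Of all alternatives, 32 of 36 for summary values and 74 of 80 for single genes stayed within 1 SD, the interval or 1.5 times the count. With the 2 highest IDs left out, all 8 single-gene levels rose, also by construction, and 6 of them passed 1 SD. The levels of HSPA8 (1217 to 1530 CPM) and HSPH1 (90.4 to 114 CPM) stayed inside it only because their SDs were wide (331 and 38.9 CPM). Leaving out 1 replicate gave the other library's value, within 1 SD by construction. These runs are part of the tallies but could not have moved. The ratios between genes had no other alternative. No paired analysis was possible because the design holds 1 group of 2 libraries. Footprint density per codon, ratios per codon or with HSPA1A, and the wider gene lists were not run, because lengths and names were not in the tables used here and HSPA1A was at 0. Depth limits DNAJB1, at 49 rounded counts in all.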
